A study of Homo sapiens with 24 samples.

Results

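The genes described here are those of cholesterol synthesis and sterol homeostasis, measured in BT-474, a human breast carcinoma cell line in which ERBB2, the gene of the receptor HER2, is amplified and the estrogen receptor is present. A list of 31 genes was used, and a gene entered if the array carried a probe set annotated to that gene alone. This held for 29 of the 31 genes, out of 19775 genes with such a probe set on the array. FDFT1 and CYP51A1 had no such probe set in the annotation used and were not analysed here. Of the 29 genes, 8 act in the mevalonate pathway, 9 convert squalene to cholesterol, 4 regulate the pathway, 6 serve uptake, transport or storage, and 2 export cholesterol. All 29 passed the filter on low values (a log2 level of at least 5 on at least 3 arrays), as did 14335 genes in all. ABCA1 passed only through HER2 siRNA arrays, because it was below 5 on all 12 control siRNA arrays. Its call with HER2 siRNA therefore followed in part from the filter. Counts and medians of the 29 genes with HER2 siRNA include ABCA1 unless stated, and its part in them carries no weight.

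Cells received either siRNA against HER2 or control siRNA, and were then kept for 24 or 4 h in estrogen at 10 nM or in its vehicle, ethanol at 0.001%. The 8 groups of 3 arrays were HER2 siRNA with estrogen for 24 h, HER2 siRNA with vehicle for 24 h, HER2 siRNA with estrogen for 4 h, HER2 siRNA with vehicle for 4 h, and the same 4 treatments in the same order with control siRNA. RNA was measured on Affymetrix HG-U133 Plus 2.0 arrays, and levels are log2 values of a probe set, so a difference of 1 is a doubling. All groups share 1 cell line, and nothing in the labels shows that the 3 replicates came from separate cultures. The p-values therefore reflect the spread between arrays, which may be technical.

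Cells make cholesterol from acetyl-CoA by way of mevalonate, farnesyl diphosphate, squalene and lanosterol. When membrane sterol is low, SCAP carries the transcription factor encoded by SREBF2 from the endoplasmic reticulum to the Golgi, where it is cleaved and released to activate the synthesis genes, while the INSIG proteins hold SCAP back when sterol is plentiful. Oxysterols activate LXR receptors, which raise the exporters ABCA1 and ABCG1 and the ubiquitin ligase MYLIP.

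Promoter sequences from RefSeq (GRCh38.p14), 250 bases before to 50 after a transcript's start, were matched for 25 of the 29 genes by symbol. They are not given here for ACAT2, SQLE, SCARB1 and ABCG1. Each window was searched on both strands for TCACNCCA, a form of the sterol regulatory element, for CCAAT, the box bound by NF-Y, and for CACGTG, an E-box. TCACNCCA was found in 3 of the 25 genes (12%), against 4.8% of all 27305 genes with a promoter. CCAAT was found in 20 of the 25 genes (80%), against 39.7% of all genes, and CACGTG in 5 of the 25 genes (20%), against 8.77% of all genes. No matches to different motifs overlapped in these windows, and a match is a description of letters, not of binding. The windows of the 3 genes with TCACNCCA are shown, beside that of INSIG1, the gene of this list that fell most with HER2 siRNA. Capitals mark matches, written ATTGG where CCAAT lies on the opposite strand, and all 4 windows read along the plus strand.
INSIG1, chr7:155297628-155297927: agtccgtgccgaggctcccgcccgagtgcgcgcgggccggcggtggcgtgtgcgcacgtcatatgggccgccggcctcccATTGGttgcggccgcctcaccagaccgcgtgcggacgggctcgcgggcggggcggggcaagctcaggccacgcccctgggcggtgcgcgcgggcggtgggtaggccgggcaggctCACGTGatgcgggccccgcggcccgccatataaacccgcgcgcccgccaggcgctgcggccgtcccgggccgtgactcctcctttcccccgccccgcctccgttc
MSMO1, chr4:165327419-165327718: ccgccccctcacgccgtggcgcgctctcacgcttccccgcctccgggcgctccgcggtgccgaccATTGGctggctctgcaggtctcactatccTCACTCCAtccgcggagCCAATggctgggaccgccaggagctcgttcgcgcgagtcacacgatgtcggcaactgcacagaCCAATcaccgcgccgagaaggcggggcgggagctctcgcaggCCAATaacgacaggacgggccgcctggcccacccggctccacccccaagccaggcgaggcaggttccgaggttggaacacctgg
MVK, chr12:109573544-109573843: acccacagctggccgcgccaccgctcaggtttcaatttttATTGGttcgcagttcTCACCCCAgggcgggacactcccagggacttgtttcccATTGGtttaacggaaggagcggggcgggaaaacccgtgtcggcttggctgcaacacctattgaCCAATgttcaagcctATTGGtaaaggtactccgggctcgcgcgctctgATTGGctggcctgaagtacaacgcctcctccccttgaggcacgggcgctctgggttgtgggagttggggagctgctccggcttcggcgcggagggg
SREBF2, chr22:41832855-41833154: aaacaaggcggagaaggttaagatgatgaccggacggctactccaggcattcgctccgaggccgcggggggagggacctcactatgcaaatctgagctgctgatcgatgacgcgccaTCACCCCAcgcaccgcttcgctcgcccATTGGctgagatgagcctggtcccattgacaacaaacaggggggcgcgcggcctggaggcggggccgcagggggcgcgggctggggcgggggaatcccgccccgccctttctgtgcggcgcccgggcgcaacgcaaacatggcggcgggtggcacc
In the window of MSMO1 the TCACNCCA match begins 156 bases before the start, in that of MVK 195 bases and in that of SREBF2 133 bases. MSMO1 and MVK hold 4 and 5 CCAAT boxes in these windows, SREBF2 and INSIG1 hold 1 each, and INSIG1 also holds the E-box, 55 bases before the start.

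ERBB2 itself had log2 levels of 11.86 to 12.69 (median 12.33) on the 12 HER2 siRNA arrays, against 13.39 to 13.94 (median 13.60) on the 12 control siRNA arrays, a difference of -1.34 ± 0.06 (SE). Array medians lay between 5.28 and 5.36, and arrays of a group correlated at 0.991 to 0.997. The 7 luminal epithelial markers had medians of 10.32 to 13.43. With HER2 siRNA 3 of them fell and 2 rose, with differences from -0.26 to 0.53. Of 10 markers of leukocytes, endothelium and fibroblasts, PTPRC, CDH5 and LUM stayed below the filter, while COL1A1 had a median of 9.63. With HER2 siRNA, LYZ rose by 1.08 and COL1A1 by 0.35, VWF fell by 0.32, and the other 4 tested did not pass. LYZ had a mean of 4.31 with control siRNA, under the filter, so its rise gives no reliable fold. The summed linear level of these 10 markers was 1050 to 1440 on HER2 siRNA arrays, against 961 to 1370 on control siRNA arrays, and its part in the results was not tested. The difference between 3' and 5' GAPDH probe sets, a measure of RNA integrity, was 0.44 ± 0.06 with HER2 siRNA and 0.30 ± 0.07 with control siRNA (SD, n = 12 each). With that difference as a covariate, 25 of the 27 calls of the averaged siRNA comparison given next remained, all but those of SC5D and SOAT1. For HER2 siRNA estrogen 4 h replicate 3 the source name gives 24 h, where its title, description and characteristics give 4 h. It was used as 4 h, and without it the averaged comparison made 27 calls as well.

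With HER2 siRNA, averaged over the 4 treatments, 22 of the 29 sterol genes fell and 5 rose at an adjusted p under 0.05 in limma. Over all 14335 genes 29.1% fell and 30.1% rose. Without ABCA1, 4 genes rose. The median difference of the 29 genes was -0.40, against 0.00 for all genes. All but 2 of the 17 synthesis enzymes fell, while both exporters, INSIG2, MYLIP and TM7SF2 rose. PMVK (-0.04 ± 0.05, adjusted p = 0.466) and NPC1 (0.06 ± 0.05, adjusted p = 0.248) did not pass the test. Every HER2 siRNA array lay below every control siRNA array for 14 of the 29 genes (8.69% of all genes) and above every one for 4 of them, ABCA1 included (7.16% of all genes). Leaving out any 1 of the 24 arrays gave 27 calls each time. Because whole cultures were measured, fewer cells with a transcript and less of it per cell cannot be told apart.

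**Figure D1:**
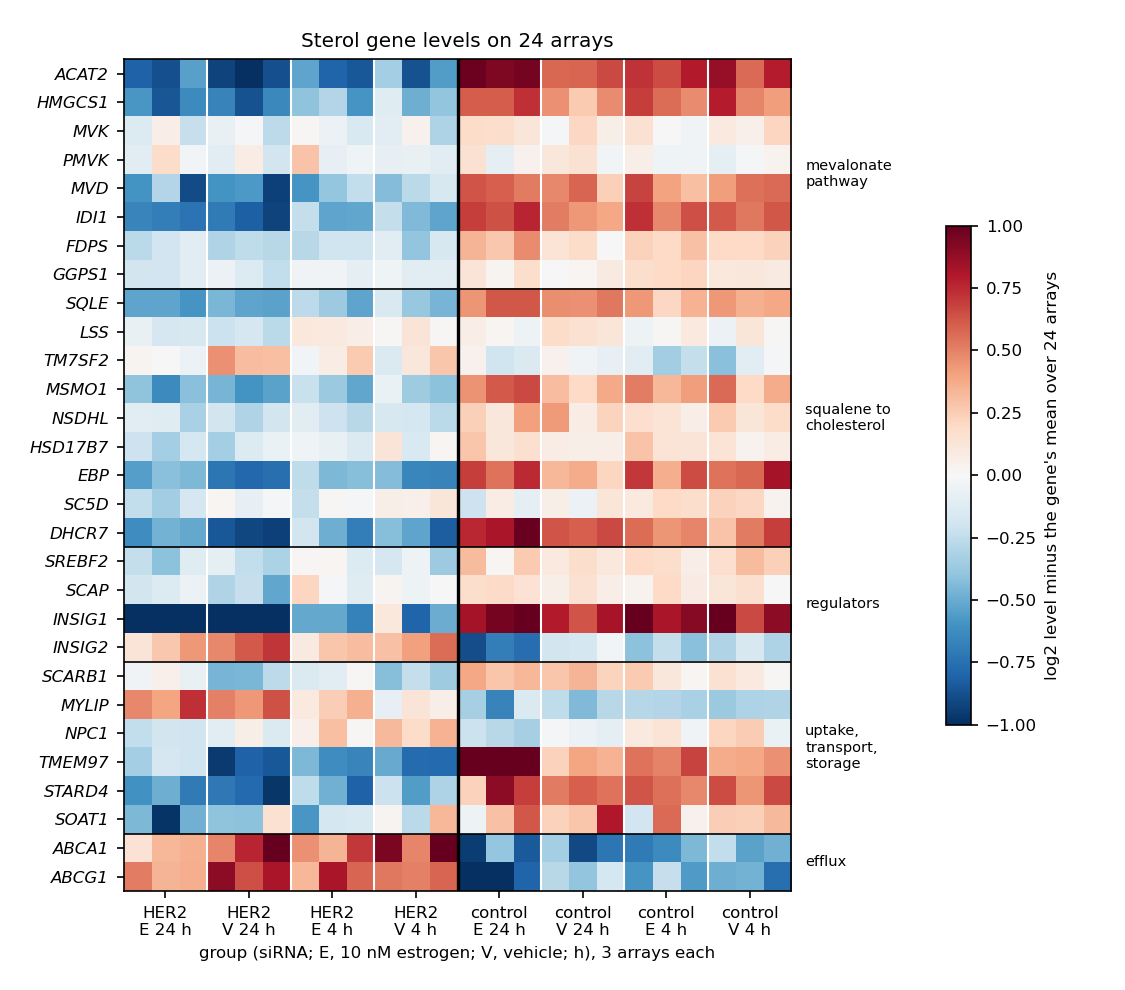
Log2 levels of 29 sterol genes (rows, by role) on 24 arrays (columns, 3 per group; E, 10 nM estrogen; V, vehicle), each minus the gene's mean over all arrays, with colours capped at 1. Most synthesis genes are blue on the 12 HER2 siRNA arrays at the left and red on the 12 control siRNA arrays, and ABCA1, ABCG1, INSIG2 and MYLIP run the other way.

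In the mevalonate pathway 7 of the 8 genes fell, where 29.1% of all genes fell. ACAT2, which joins 2 acetyl-CoA units in the first step, had log2 levels of 8.32 to 9.08 (median 8.59) with HER2 siRNA, against 9.98 to 10.39 (median 10.17) with control siRNA. The groups did not overlap, and the difference of -1.51 ± 0.06 (adjusted p = 3.99e-15) left 35.0% of the control level. HMGCS1, the HMG-CoA synthase, had 8.84 to 9.59 (median 9.12) with HER2 siRNA, against 9.97 to 10.49 (median 10.23) with control siRNA. Its difference was -1.09 ± 0.06 (adjusted p = 3.31e-13). MVD, the mevalonate diphosphate decarboxylase, differed by -0.99 ± 0.07 (adjusted p = 4.11e-11), again with no overlap. FDPS, which makes farnesyl diphosphate, differed by -0.46 ± 0.04, and GGPS1, which extends it to geranylgeranyl diphosphate, by -0.22 ± 0.03, both with no overlap. The 2 kinases differed least by their brightest probe sets. MVK had 8.25 to 8.63 with HER2 siRNA, against 8.52 to 8.77 with control siRNA, a difference of -0.20 ± 0.05 (adjusted p = 0.000933), and PMVK did not pass. The 3 dimmer probe sets of MVK differed by -0.35, -0.93 and -0.09, and the mean of its probe sets by -0.39.

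IDI1, the isopentenyl diphosphate isomerase, has 4 probe sets of its own, and they did not move alike. The brightest had 9.59 to 10.28 (median 9.92) with HER2 siRNA, against 10.90 to 11.27 (median 11.13) with control siRNA, and fell by 1.17 ± 0.05. The second brightest fell by 1.11 ± 0.06 (adjusted p = 3.7e-13 in a fit of all probe sets), with no overlap. The 2 dim probe sets went the other way. The dimmest had 6.20 to 6.92 (median 6.52) with HER2 siRNA, against 5.58 to 6.30 (median 5.85) with control siRNA, and rose by 0.67 ± 0.09 (adjusted p = 1.79e-06). The third, with a mean level of 6.68, rose by 0.20 ± 0.06 (adjusted p = 0.00747), and in both the groups overlapped. All but the dimmest carry the suffix _x_at in their name, which marks probe sets that may also bind other transcripts. Of 17 called genes with another tested probe set, 15 had none called the other way, and IDI1 and SOAT1 had 1 or more.

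**Figure D2:**
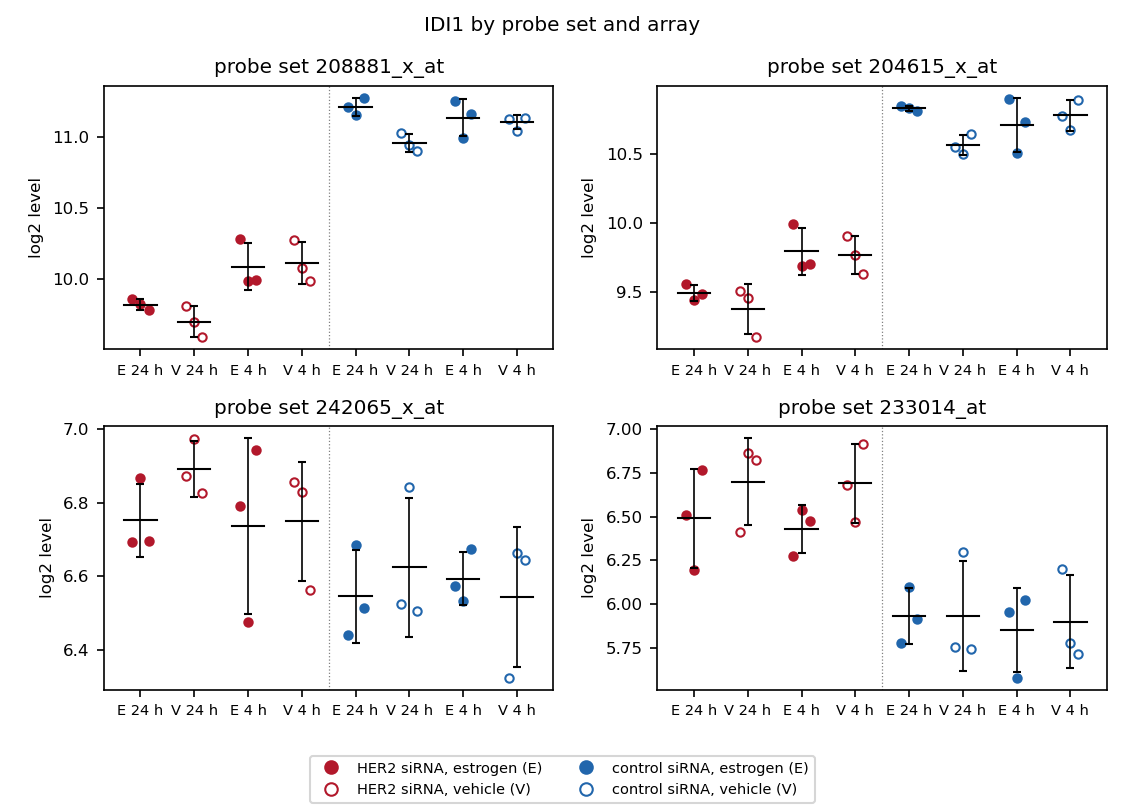
Log2 level (vertical axis) of the 4 probe sets of IDI1 on each of the 24 arrays, by group (HER2 siRNA left and red, control siRNA right and blue; filled, estrogen; open, vehicle); bars are group means with SD of 3 arrays. The upper 2 probe sets are lower with HER2 siRNA (-1.17 and -1.11) and the lower 2 are higher (0.20 and 0.67).

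Between squalene and cholesterol, 8 of the 9 genes fell and TM7SF2 rose, where 29.1% of all genes fell and 30.1% rose. DHCR7, the reductase of the last step, had log2 levels of 8.48 to 9.23 (median 8.84) with HER2 siRNA, against 9.70 to 10.40 (median 10.02) with control siRNA. It differed by -1.24 ± 0.06 (adjusted p = 7.33e-14) and stood at 42.4% of control. EBP, the sterol isomerase, had 8.67 to 9.20 with HER2 siRNA, against 9.66 to 10.28 with control siRNA (difference -1.09 ± 0.05). SQLE, the squalene epoxidase, had 9.21 to 9.64, against 10.00 to 10.42 (difference -0.88 ± 0.04). MSMO1, the methyl sterol oxidase, had 9.86 to 10.43, against 10.70 to 11.15 (difference -0.83 ± 0.05). None of these 4 genes overlapped between siRNAs, nor did NSDHL (-0.40 ± 0.05). The reductase HSD17B7 (-0.26 ± 0.04), the desaturase SC5D (-0.14 ± 0.04, adjusted p = 0.00555) and the lanosterol synthase LSS (-0.10 ± 0.03, adjusted p = 0.00863) fell with overlapping groups. The call of SC5D ended with the GAPDH covariate (adjusted p = 0.111), and LSS turned to 0.01 (adjusted p = 0.848) when all its probe sets were averaged. TM7SF2, a sterol reductase of the middle steps, had 10.41 to 11.01 (median 10.65) with HER2 siRNA, against 10.13 to 10.60 (median 10.45) with control siRNA. It rose by 0.27 ± 0.06 (adjusted p = 0.000258).

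**Figure D3:**
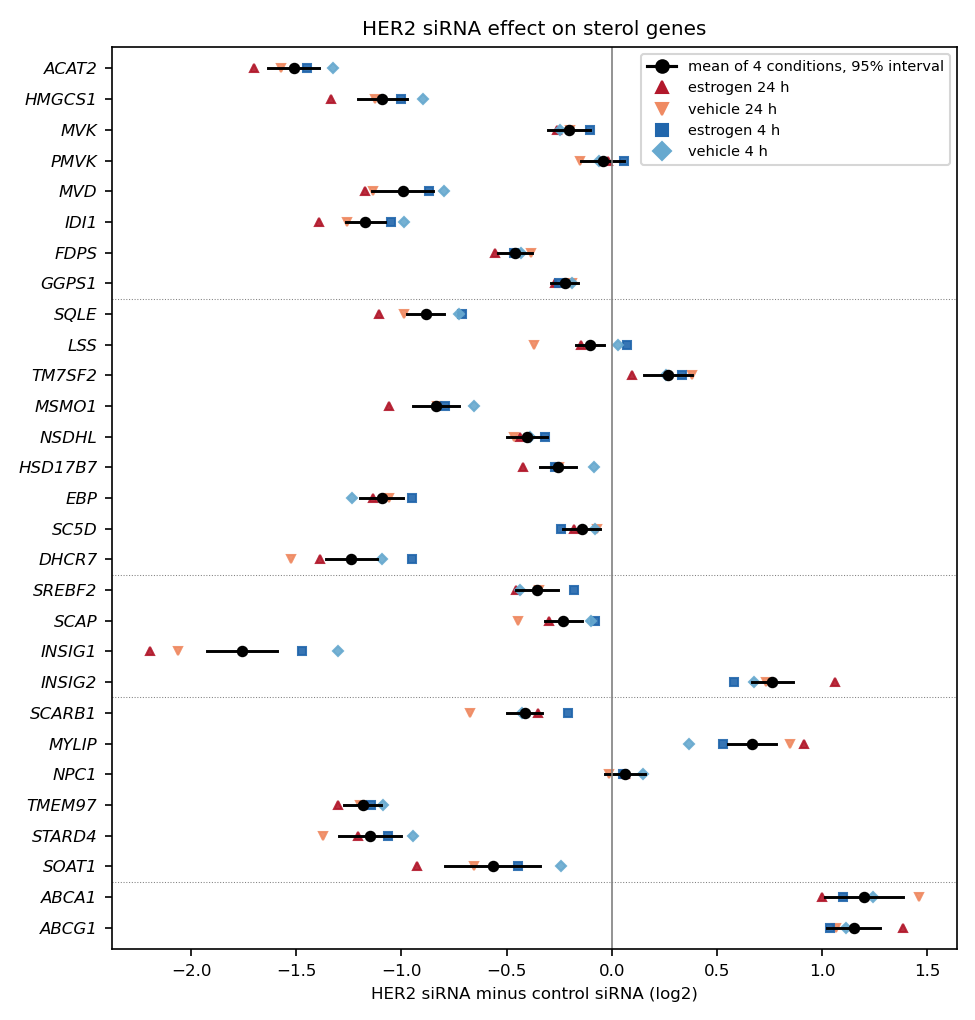
Difference between HER2 siRNA and control siRNA (log2, horizontal axis) for 29 sterol genes by role; black points and bars are the mean over 4 treatments with its 95% interval, and coloured symbols are the 4 treatments. INSIG1 lies farthest left at -1.76, and ABCA1 (1.20, against control levels under the filter) and ABCG1 (1.15) lie farthest right.

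Among the regulators INSIG1 fell and INSIG2 rose. INSIG1 had 8.79, 8.55 and 8.59 with HER2 siRNA and estrogen at 24 h, against 10.71, 10.84 and 10.96 with control siRNA. With vehicle at 24 h it had 8.70, 8.33 and 8.65, against 10.67, 10.51 and 10.70. Each HER2 siRNA array at 24 h was thus more than 1 log2 unit below each control array. At 4 h INSIG1 had 9.37, 9.37 and 9.20 with HER2 siRNA and estrogen, against 10.88, 10.69 and 10.79 with control siRNA. With vehicle at 4 h it had 9.98, 9.08 and 9.38, against 11.03, 10.54 and 10.77, so the groups at 4 h did not overlap either, and replicate 1 was the highest in both. The averaged difference was -1.76 ± 0.08 (adjusted p = 4.8e-14), which is 29.6% of control (95% interval 26.3 to 33.2). Its other 2 probe sets fell by 1.70 ± 0.07 and 1.49 ± 0.08, also with no overlap.

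INSIG2, the paralogue of INSIG1, had 9.38, 9.52 and 9.68 with HER2 siRNA and estrogen at 24 h, against 8.36, 8.55 and 8.48 with control siRNA. With vehicle at 24 h it had 9.73, 9.86 and 9.96, against 9.06, 9.07 and 9.21. At 4 h it had 9.33, 9.53 and 9.55 with estrogen, against 8.83, 9.01 and 8.82, and 9.54, 9.66 and 9.80 with vehicle, against 8.95, 9.08 and 8.93. All HER2 siRNA arrays were above all control siRNA arrays, and the averaged difference was 0.76 ± 0.05 (adjusted p = 6.27e-12). SREBF2 had 7.75 to 8.18 (median 8.01) with HER2 siRNA, against 8.18 to 8.48 (median 8.33) with control siRNA, a difference of -0.36 ± 0.05 (adjusted p = 1.1e-06). SCAP fell by 0.23 ± 0.04 (adjusted p = 6.65e-05). In both genes the groups overlapped.

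Of the uptake, transport and storage genes, 4 of 6 fell, MYLIP rose and NPC1, which exports cholesterol from lysosomes, did not pass. Of all genes 29.1% fell and 30.1% rose. TMEM97, an endoplasmic reticulum protein that binds NPC1, had 8.62 to 9.41 (median 8.94) with HER2 siRNA, against 9.81 to 10.69 (median 10.06) with control siRNA. It fell by 1.18 ± 0.04 (adjusted p = 1.29e-15). STARD4, a cytosolic sterol carrier, had 5.19 to 5.94 (median 5.58) with HER2 siRNA, against 6.39 to 7.05 (median 6.73) with control siRNA, and fell by 1.15 ± 0.07. SCARB1, the HDL receptor, had 7.25 to 7.77 with HER2 siRNA, against 7.73 to 8.10 with control siRNA, and fell by 0.41 ± 0.04 with overlapping groups. With its probe sets averaged the difference was -0.13, and only the call for vehicle at 24 h was kept among the single treatments. For SOAT1, which esterifies cholesterol for storage, the brightest probe set had 5.89 to 7.20 with HER2 siRNA, against 6.68 to 7.67 with control siRNA, and fell by 0.57 ± 0.11 (adjusted p = 0.000107). A second SOAT1 probe set rose by 0.23 ± 0.08 (adjusted p = 0.0196), and the call was lost when probe sets were averaged (adjusted p = 0.181) and with the GAPDH covariate (adjusted p = 0.053). MYLIP, the ubiquitin ligase that marks lipoprotein receptors for degradation, had 10.24 to 11.05 (median 10.70) with HER2 siRNA, against 9.66 to 10.18 (median 10.02) with control siRNA. It rose by 0.67 ± 0.06 (adjusted p = 7.02e-10) with no overlap.

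Both exporters had higher levels with HER2 siRNA. ABCA1 passed the filter only through HER2 siRNA arrays, so its separation and p-value carry no weight. ABCA1, which passes cholesterol to apolipoproteins, had 5.25, 5.44 and 5.46 with HER2 siRNA and estrogen at 24 h, against 4.15, 4.72 and 4.26 with control siRNA. With vehicle at 24 h it had 5.59, 5.86 and 6.26, against 4.76, 4.20 and 4.38. At 4 h it had 5.56, 5.44 and 5.81 with estrogen, against 4.39, 4.47 and 4.65, and 6.05, 5.59 and 6.13 with vehicle, against 4.85, 4.57 and 4.62. The siRNA groups did not overlap, and the fitted difference was 1.20 ± 0.09 (adjusted p = 1.24e-10). Because every control siRNA level lay under the filter, this difference gives no reliable fold. ABCG1, which passes cholesterol to HDL, had 9.33 to 9.89 (median 9.55) with HER2 siRNA, against 7.87 to 8.82 (median 8.47) with control siRNA. Its difference was 1.15 ± 0.06 (adjusted p = 3.71e-13), 222.0% of control.

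**Figure D4:**
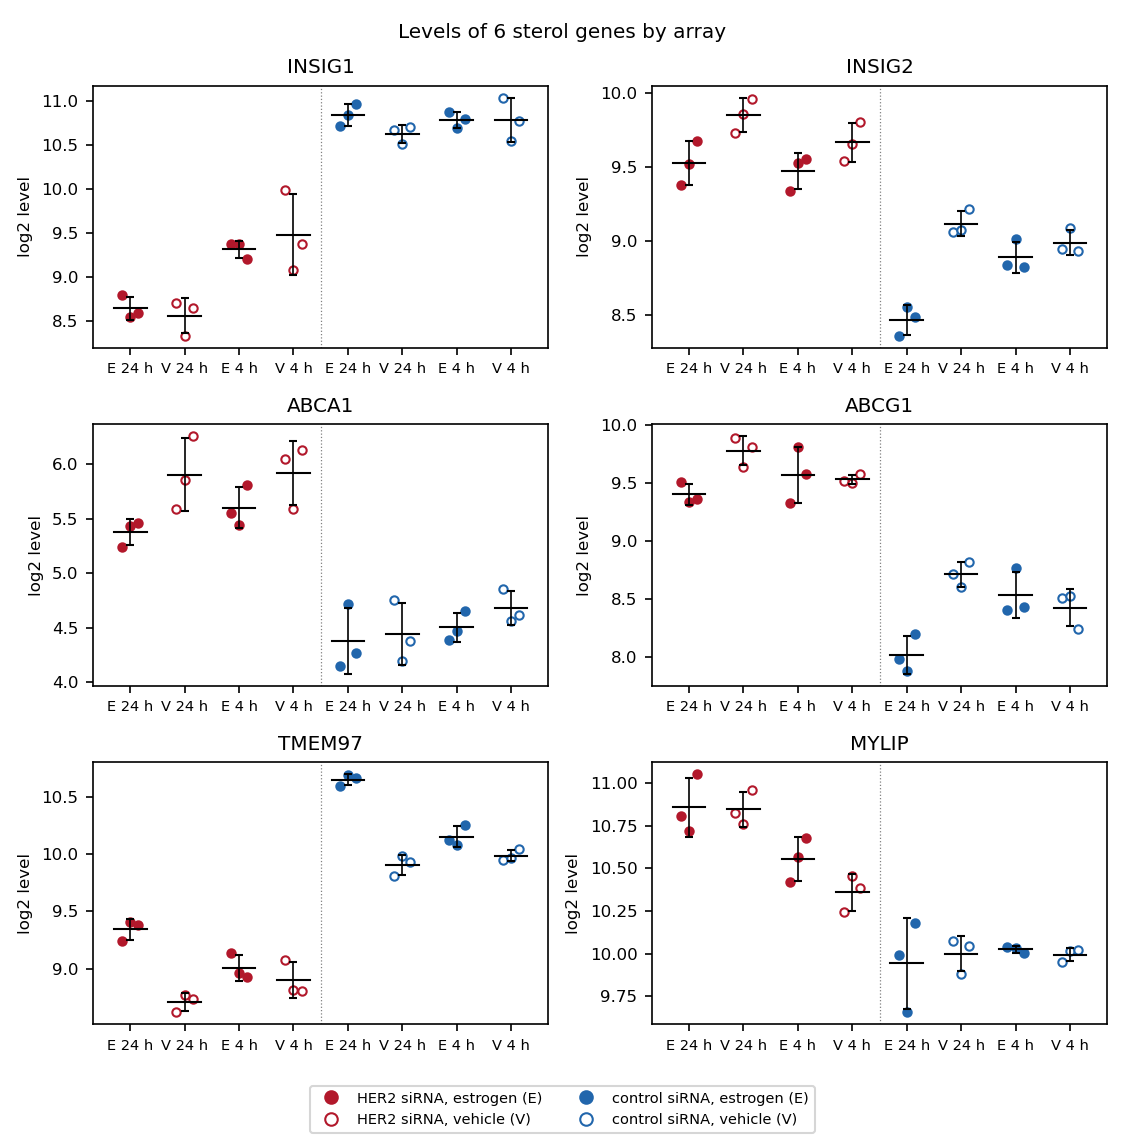
Log2 level (vertical axis) of INSIG1, INSIG2, ABCA1, ABCG1, TMEM97 and MYLIP on each array, by group (E, estrogen; V, vehicle; HER2 siRNA red and left, control siRNA blue and right); bars are group means with SD of 3 arrays. INSIG1 and TMEM97 are lower on all HER2 siRNA arrays and the other 4 genes higher.

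Within single treatments, HER2 siRNA lowered 20 and raised 4 of the 29 genes with estrogen at 24 h, where 20.5% and 21.5% of all genes fell and rose. With vehicle at 24 h 20 fell and 5 rose (21.8% and 19.7% of all genes). With estrogen at 4 h 17 fell and 5 rose (17.3% and 16.8%), and without the array of disputed time 16 fell and 4 rose. With vehicle at 4 h 16 fell and 4 rose (17.8% and 16.5%). MVK reached adjusted p = 0.0528 there, and 0.0262 with the replicate number as a block. The same 15 genes fell in each of the 4 treatments (12.2% of all genes), and INSIG2, MYLIP and ABCG1, besides ABCA1, rose in each (10.6% of all genes). ABCA1 is thus counted among the rises of every treatment above. Among the 15, SCARB1 with estrogen at 4 h (adjusted p = 0.0438) lost its call without each of 8 single arrays and under 7 other alternatives. GGPS1 with vehicle at 4 h (adjusted p = 0.0208) lost it without each of 4 single arrays and under 4 other alternatives. Centred on its mean over the arrays, the mean of the 17 synthesis enzymes was -0.35 ± 0.01 with HER2 siRNA and estrogen at 24 h, against 0.38 ± 0.04 with control siRNA (SD, n = 3 each). With vehicle at 24 h it was -0.40 ± 0.03, against 0.26 ± 0.02. At 4 h it was -0.24 ± 0.06 with estrogen, against 0.29 ± 0.06, and -0.23 ± 0.07 with vehicle, against 0.29 ± 0.03.

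The siRNA difference was compared between 24 h and 4 h, both averaged over estrogen and vehicle. It was more negative at 24 h for INSIG1 (-0.74 ± 0.16, adjusted p = 0.0154), DHCR7 (-0.44 ± 0.12, adjusted p = 0.0473), SQLE (-0.33 ± 0.08, adjusted p = 0.0379) and LSS (-0.31 ± 0.07, adjusted p = 0.0126). It was more positive at 24 h for MYLIP (0.43 ± 0.11, adjusted p = 0.0362). These are 4 of 29 lower and 1 of 29 higher, against 1.22% and 1.73% of all genes. SOAT1 differed slightly more than DHCR7, by -0.45 ± 0.22 (adjusted p = 0.306), but did not pass. Leaving out single arrays gave 2 to 6 calls, and INSIG1 and LSS passed in each of these fits. With probe sets averaged, the call of LSS was lost (-0.14, adjusted p = 0.362). DHCR7 lost its call under 4 alternatives other than leaving out single arrays, SQLE under 2 and MYLIP under 2. At 24 h, 5 calls were left without control siRNA estrogen replicate 1, and 4 each without control siRNA vehicle replicate 1, HER2 siRNA estrogen replicate 1 or HER2 siRNA vehicle replicate 1. At 4 h, 6 were left without HER2 siRNA estrogen replicate 3 or HER2 siRNA vehicle replicate 3, and 4 without HER2 siRNA vehicle replicate 2. Without any 1 of the other 17 arrays the count was 2 or 3.

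Estrogen changed fewer of these genes. With HER2 siRNA at 24 h, TMEM97 and SCARB1 rose and INSIG2 fell, against 4.28% of all genes that rose and 1.90% that fell. TMEM97 had 9.24, 9.41 and 9.38 with estrogen, against 8.62, 8.77 and 8.73 with vehicle, and rose by 0.64 ± 0.08 (adjusted p = 2.84e-05). SCARB1 had 7.68, 7.77 and 7.64 with estrogen, against 7.25, 7.26 and 7.46 with vehicle, and rose by 0.37 ± 0.08 (adjusted p = 0.00413). INSIG2 fell by 0.33 ± 0.10 (adjusted p = 0.0424), the values being those given above, with no overlap. ABCA1 had 5.25 to 5.46 with estrogen, against 5.59 to 6.26 with vehicle (difference -0.52 ± 0.18, adjusted p = 0.0964), and SOAT1 had 5.89 to 6.42, against 6.46 to 7.02 (difference -0.42 ± 0.22, adjusted p = 0.374). Neither passed, though their groups did not overlap. In this comparison 7 of the 29 genes lay lower with estrogen without overlap and 8 higher, called or not. The share over all genes was not counted for this comparison, so these counts and the lack of overlap carry no weight. The 3 calls became 5 without HER2 siRNA estrogen 4 h replicate 1 or without HER2 siRNA vehicle 4 h replicate 3, which enter through the shared spread. INSIG2 lost its call without each of 6 single arrays, with no filter (adjusted p = 0.0619), with equal array medians (adjusted p = 0.0708) and with only the groups compared (adjusted p = 0.179). SCARB1 lost its call with its probe sets averaged (0.19, adjusted p = 0.101) and with only the groups compared (adjusted p = 0.0737).

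With control siRNA at 24 h, estrogen raised TMEM97, EBP, FDPS and ACAT2 and lowered ABCG1 and INSIG2, where 7.01% of all genes rose and 6.52% fell. TMEM97 had 10.60, 10.69 and 10.66 with estrogen, against 9.81, 9.98 and 9.93 with vehicle, and rose by 0.74 ± 0.08 (adjusted p = 4.03e-06). ABCG1 had 7.98, 7.87 and 8.20 with estrogen, against 8.72, 8.60 and 8.82 with vehicle, and fell by 0.70 ± 0.12 (adjusted p = 0.000433). INSIG2 fell by 0.65 ± 0.10 (adjusted p = 6.42e-05). In all 3 genes the groups were apart. The rises were smaller for EBP (0.36 ± 0.10, adjusted p = 0.0167), FDPS (0.25 ± 0.08, adjusted p = 0.0309) and ACAT2 (0.35 ± 0.12, adjusted p = 0.0498). Of the 6 calls, 3 were left without control siRNA estrogen 24 h replicate 1 or replicate 3, or control siRNA vehicle 24 h replicate 3, and 3 were left with the GAPDH covariate. In each of these fits TMEM97, ABCG1 and INSIG2 passed.

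**Figure D5:**
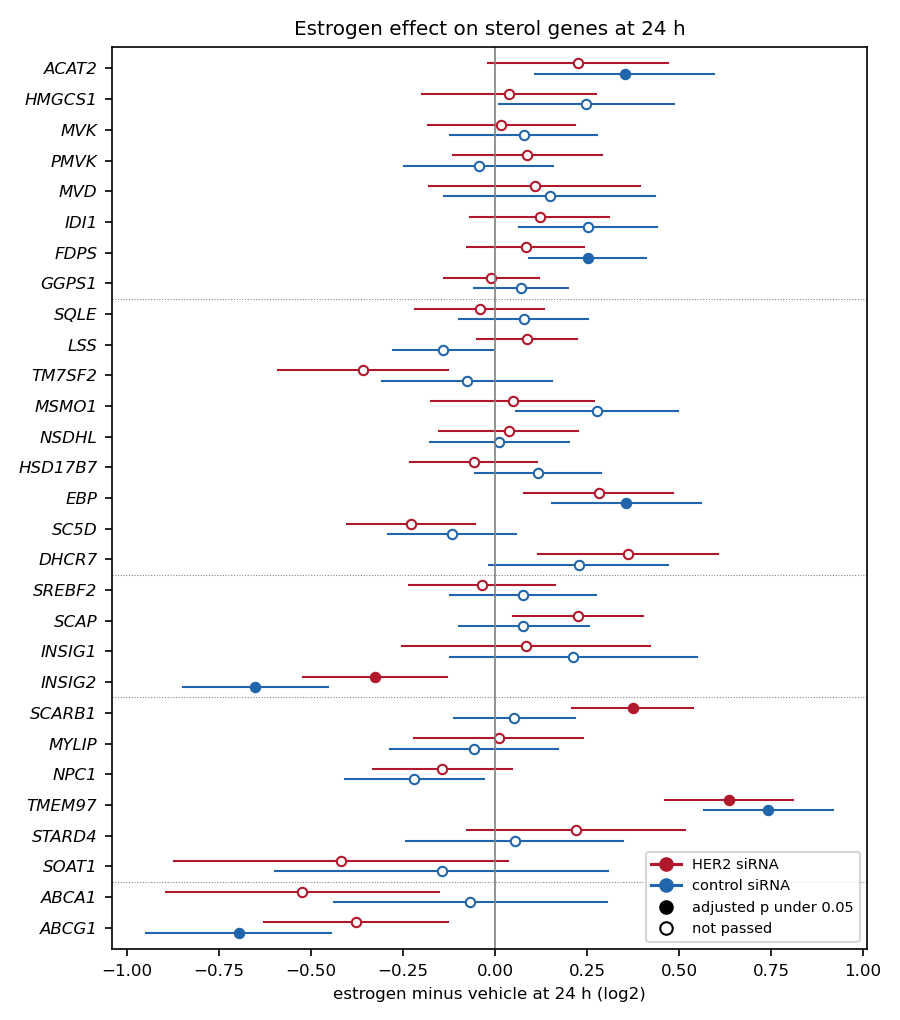
Difference between estrogen and vehicle at 24 h (log2, horizontal axis) for 29 sterol genes with HER2 siRNA (red, upper) and control siRNA (blue, lower); bars are 95% intervals and filled points passed at an adjusted p under 0.05. TMEM97 lies at 0.64 and 0.74, INSIG2 at -0.33 and -0.65, and ABCG1 passed with control siRNA (-0.70).

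At 4 h no sterol gene was called for estrogen by limma with either siRNA. With HER2 siRNA 0.698% of all genes were called, and EBP and SCARB1 (2 of 29, against 7.41% of all genes) had an unadjusted p under 0.05. The largest differences were SOAT1 -0.33 ± 0.22, ABCA1 -0.32 ± 0.18 and SCARB1 0.26 ± 0.08 (adjusted p = 0.796, 0.733 and 0.248). With control siRNA 0.342% of all genes were called and 0 of the 29 had an unadjusted p under 0.05, against 3.92% of all genes. Leaving aside ABCA1, which was under the filter in both groups, the largest differences there were TMEM97 0.17 ± 0.08, SOAT1 -0.13 ± 0.22 and ABCG1 0.11 ± 0.12.

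The estrogen effect averaged over both siRNAs differed between 24 h and 4 h for TMEM97 (0.55 ± 0.08, adjusted p = 0.000588), ABCG1 (-0.61 ± 0.12, adjusted p = 0.00455) and INSIG2 (-0.34 ± 0.10, adjusted p = 0.0473). INSIG2 lost this call without each of 18 single arrays. That is 1 of 29 higher and 2 of 29 lower, against 2.11% and 1.38% of all genes. ACAT2 differed slightly more than INSIG2 in size (0.36 ± 0.12, adjusted p = 0.0992) but did not pass.

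No sterol gene was called in limma for a difference of the estrogen effect between HER2 siRNA and control siRNA. At 24 h 0.0628% of all genes were called, and LSS, INSIG2 and SCARB1 (3 of 29, against 6.04% of all genes) had an unadjusted p under 0.05. Leaving aside ABCA1, the largest differences were INSIG2 0.33 ± 0.13 (95% interval 0.05 to 0.60), SCARB1 0.32 ± 0.11 (0.09 to 0.55) and ABCG1 0.32 ± 0.17, with adjusted p of 0.709, 0.549 and 0.876. At 4 h 0 of all genes were called, and 0 of the 29 had an unadjusted p under 0.05, against 2.81% of all genes. EBP (0.29 ± 0.14), SREBF2 (0.25 ± 0.14) and SCARB1 (0.22 ± 0.11) differed most, each with adjusted p = 0.999.

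Within 1 siRNA and treatment, levels at 24 h were set against those at 4 h. With HER2 siRNA and estrogen INSIG1 (-0.67 ± 0.16, adjusted p = 0.0144), NPC1 (-0.33 ± 0.09, adjusted p = 0.0319) and LSS (-0.23 ± 0.07, adjusted p = 0.042) fell and TMEM97 rose (0.34 ± 0.08, adjusted p = 0.0174), where 3.15% of all genes fell and 3.06% rose. SOAT1 (-0.34 ± 0.22, adjusted p = 0.436) did not pass. With probe sets averaged, the limma calls of NPC1 (-0.11, adjusted p = 0.455) and LSS (-0.12, adjusted p = 0.43) were lost. No call was made without 24 h replicate 2, 24 h replicate 3 or 4 h replicate 2 of that treatment, 1 without 4 h replicate 1 and 2 without the array of disputed time. With HER2 siRNA and vehicle INSIG1 (-0.92 ± 0.16, adjusted p = 0.00209), IDI1 (-0.41 ± 0.09), HMGCS1 (-0.39 ± 0.11), NPC1 (-0.35 ± 0.09), SCAP (-0.34 ± 0.08) and LSS (-0.27 ± 0.07) fell and MYLIP rose (0.49 ± 0.11, adjusted p = 0.0116). The shares of all genes were 3.43% and 3.03%. With probe sets averaged, the limma calls of NPC1 (-0.05, adjusted p = 0.757) and IDI1 (-0.16, adjusted p = 0.215) were lost. STARD4 (-0.46 ± 0.14, adjusted p = 0.0569), ACAT2 (-0.38 ± 0.12, adjusted p = 0.0548) and MVD (-0.42 ± 0.14, adjusted p = 0.0757) passed with the replicate number as a block (adjusted p = 0.0437, 0.0138 and 0.046). Without 24 h replicate 3 or without 4 h replicate 1 of that treatment 1 call was left. HMGCS1 lost its call under 5 alternatives other than leaving out single arrays, and all 7 calls were lost with only the groups compared.

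With control siRNA and estrogen ABCG1 (-0.52 ± 0.12, adjusted p = 0.0141), INSIG2 (-0.43 ± 0.10, adjusted p = 0.0106) and NPC1 (-0.34 ± 0.09, adjusted p = 0.0294) fell at 24 h against 4 h and TMEM97 rose (0.50 ± 0.08, adjusted p = 0.00118), where 3.43% of all genes fell and 2.53% rose. Without 4 h replicate 2 of that treatment 1 call was left, and 2 without 24 h replicate 2. With probe sets averaged, NPC1 lost its limma call (-0.12, adjusted p = 0.361). With control siRNA and vehicle limma called none of the 29 genes and 0.781% of all genes. There 4 of the 29, against 14.4% of all genes, had an unadjusted p under 0.05. Leaving aside ABCA1, EBP (-0.35 ± 0.10, adjusted p = 0.0967) and ABCG1 (0.29 ± 0.12, adjusted p = 0.274) differed most.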

How the data were processed

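The deposited log2 values, 1 per probe set and array, had been made by the authors with RMA, per the submitters' processing notes. The RMA software version was not given in the sources used here. Probe sets were named through the platform annotation. Of 54675 probe sets, 41091 named a single gene, 1801 named several and 11721 none, besides 62 controls. The brightest probe set stood for its gene, and genes with a log2 level of at least 5 on at least 3 arrays were tested. A mean for each of the 8 groups was fitted over the 24 arrays with limma 3.58.1 in R 4.3.3, moderating variances by empirical Bayes (4.92 prior and 20.9 total degrees of freedom). In each of 17 comparisons the Benjamini-Hochberg adjustment ran over the 14335 genes, at a threshold of 0.05. The procedure was tested on simulated data, and figures were drawn with matplotlib 3.10.9. RMA sets the arrays to a common distribution, so a shift shared by most transcripts would not be seen, and the number of arrays limits the precision.

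Members and lists were chosen with earlier results of these data known. Per-array or per-group values were given for the 5 members that differed most with HER2 siRNA, the 3 that differed most in each other comparison, IDI1, INSIG1, INSIG2, ABCA1 and ABCG1. Differences within control siRNA, and of estrogen effects between siRNAs, were left out for ABCA1 because its control siRNA levels lay under the filter. Of other sterol and isoprenoid genes up to 6, and of fatty acid genes up to 3, were named by smallest adjusted p. The 3 genes outside the lists closest to the synthesis enzymes in Pearson correlation over the 8 group means were also named. FDFT1 and CYP51A1, and NR1H2 and FADS1 of the further lists, were not analysed here.

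Replicate numbers come from the labels. Of 84 pairs of arrays with the same number, 60 had deviations from their group means that correlated over 0.1 (median 0.205). For different numbers the median was -0.107. Deviations from a group mean cancel within the group, so this value follows in part from the other and is no independent reference. In 5 of 12 comparisons of 2 groups every pair with the same number correlated over 0.1. These were HER2 siRNA against control siRNA with vehicle at both times and with estrogen at 4 h, estrogen against vehicle with HER2 siRNA at 24 h, and 24 h against 4 h with HER2 siRNA and vehicle. There the replicate number was taken to pair the arrays. The main fit and its counts used no block, also in these 5 comparisons, and the block was run as an alternative.

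The alternatives were no filter, a filter at 7, the replicate block, probe sets averaged by gene, only the groups compared, equal array medians, repeated quantile normalisation, a robust prior with an intensity trend, array weights, the GAPDH difference as a covariate, leaving out each array, and leaving out 3 arrays whose running number in the labels lies apart from the other 21. Those 3 were replicate 1 of HER2 siRNA estrogen 4 h, control siRNA estrogen 24 h and control siRNA vehicle 24 h.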

Additional observations from a re-analysis of the deposited data

Results flagged for a closer look

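For 5 genes the difference between HER2 siRNA and control siRNA was not the same at 24 h as at 4 h. This was by limma's test of that difference over 3 arrays a group, where 1.22% of all genes were lower and 1.73% higher. Leaving out single arrays gave 2 to 6 calls, and of the 5 genes only INSIG1 and LSS passed each time. LSS lost its call with probe sets averaged (adjusted p = 0.362). DHCR7 lost its call under 4 alternatives other than leaving out single arrays, SQLE under 2 and MYLIP under 2. The change in the siRNA difference, 24 h minus 4 h, was -0.74 for INSIG1 (adjusted p = 0.0154), -0.44 for DHCR7 (adjusted p = 0.0473), -0.33 for SQLE (adjusted p = 0.0379), -0.31 for LSS (adjusted p = 0.0126) and 0.43 for MYLIP (adjusted p = 0.0362).

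For 3 genes the difference between estrogen and vehicle, averaged over both siRNAs, was not the same at 24 h as at 4 h by the same test. Of all genes 1.38% were lower and 2.11% higher. INSIG2 lost its call without each of 18 single arrays and under 4 other alternatives. The change, 24 h minus 4 h, was 0.55 for TMEM97 (adjusted p = 0.000588), -0.61 for ABCG1 (adjusted p = 0.00455) and -0.34 for INSIG2 (adjusted p = 0.0473).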

How the results depend on the processing

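The 27 calls averaged over the treatments were 24 to 27 under every alternative run, and 27 without any single array. With single arrays left out, the siRNA comparison made 19 to 21 calls with vehicle at 4 h, 23 to 25 with vehicle at 24 h, 19 to 22 with estrogen at 4 h and 23 to 24 with estrogen at 24 h. Leaving out single arrays gave 2 to 5 estrogen calls with HER2 siRNA and 3 to 7 with control siRNA at 24 h, and 0 at 4 h and for differences between siRNAs. It gave 2 to 6 and 2 to 4 calls for the siRNA and estrogen effects between times. For 24 h against 4 h it gave 0 to 4 with HER2 siRNA and estrogen, 1 to 9 with HER2 siRNA and vehicle, 1 to 5 with control siRNA and estrogen, and 0 with control siRNA and vehicle. The siRNA effect between times, with 5 calls, had 3 with no filter, 3 with the mean of probe sets, 3 without the 3 arrays numbered apart and 8 with the replicate block. Estrogen with HER2 siRNA at 24 h, with 3 calls, had 6 with the filter at 7, 1 with only the groups compared, 5 with array weights and 6 with the trend and robust prior. Estrogen with control siRNA at 24 h, with 6 calls, had 3 with the GAPDH covariate and 3 without the arrays numbered apart. For 24 h against 4 h, the 4 calls with HER2 siRNA and estrogen became 2 with the mean of probe sets, 1 with only the groups compared and 1 without the arrays numbered apart. The 7 with HER2 siRNA and vehicle became 0 with only the groups compared, and the 4 with control siRNA and estrogen 2 there and 7 with array weights. With control siRNA and vehicle the replicate block gave 1 call, EBP (adjusted p = 0.0457), where there had been 0. Where the numbers were not taken to pair the arrays, the block also brought further genes under the threshold. These were IDI1 (adjusted p = 0.0199) and MSMO1 (adjusted p = 0.0406) for estrogen with control siRNA at 24 h. For 24 h against 4 h with HER2 siRNA and estrogen they were IDI1 and MYLIP. Pairing was examined only between 2 groups, not for the effects between times. There the block brought under the threshold ACAT2 (adjusted p = 0.0271) for the estrogen effect, and IDI1, SCAP and INSIG2 for the siRNA effect. With the blocked values given beside MVK, STARD4, ACAT2 and MVD, it changed no other call. LSS turned to 0.01 with the mean of its probe sets. Of the called differences, 1544 results under the alternatives kept direction and call, 90 lost the call and 1 reversed. With single arrays left out 3423 kept both and 177 lost the call. The causes were not tested.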

Other observations

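Of 36 tested other genes of sterol and isoprenoid biology, 11 fell and 16 rose with HER2 siRNA averaged over the treatments (all genes 29.1% and 30.1%), with a median difference of 0.03. PDSS1, which builds the side chain of coenzyme Q, averaged 7.27 with HER2 siRNA and 8.32 with control siRNA, a difference of -1.05 ± 0.04 (SE; adjusted p = 3.35e-15 in limma). ICMT, which methylates prenylated proteins, averaged 8.49 with HER2 siRNA and 9.45 with control siRNA (difference -0.95 ± 0.04). LBR, a lamin receptor with sterol reductase activity, averaged 9.22 with HER2 siRNA and 10.06 with control siRNA (difference -0.84 ± 0.06). FNTB, the beta subunit of farnesyltransferase, averaged 7.32 with HER2 siRNA and 5.82 with control siRNA (difference 1.49 ± 0.09). GRAMD1C, of a family of sterol transfer proteins, averaged 8.51 with HER2 siRNA and 6.92 with control siRNA (difference 1.58 ± 0.10). ERLIN2, an endoplasmic reticulum protein, averaged 9.77 with HER2 siRNA and 8.998 with control siRNA (difference 0.77 ± 0.04).

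Of 9 tested fatty acid genes 7 fell and 0 rose with HER2 siRNA (all genes 29.1% and 30.1%), with a median difference of -0.66. ELOVL6, an elongase, averaged 7.37 with HER2 siRNA and 8.93 with control siRNA (difference -1.56 ± 0.06). SCD, the stearoyl-CoA desaturase, averaged 11.11 with HER2 siRNA and 12.34 with control siRNA (difference -1.23 ± 0.04, adjusted p = 2.65e-16 in limma). ACLY, which makes cytosolic acetyl-CoA, averaged 10.71 with HER2 siRNA and 11.52 with control siRNA (difference -0.81 ± 0.03). Over the 8 group means, the genes outside these lists whose levels followed the mean of the 17 synthesis enzymes most closely were RAB3IP (Pearson r = 0.998), MKKS (r = 0.997) and ATP5MC3 (r = 0.997). These correlations are a description over means of shared arrays.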
